A study of Mus musculus with 54 samples.

Results

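Rag1, Rag2 and Dntt encode the enzymes that cut and diversify antigen receptor genes. They were taken by symbol from the deposited table, where they are 3 of 13611 genes, and were followed in all 54 libraries. The study gave 10 Gy of gamma radiation and sequenced messenger RNA from thymus, spleen, small intestine and large intestine of C57B6 mice and from NIH3T3, an established mouse fibroblast line. Each tissue had 1 untreated library at 0 h and 1 irradiated library for each of hours 1 to 8 and for hour 24, and NIH3T3 had further libraries for hours 9 to 12. No age, genotype or number of animals per library is given in the labels. The labels also do not say that libraries came from separate mice, so a p-value here reflects library-to-library spread, which may be technical.

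Developing T and B cells build their receptors by V(D)J recombination, in which separate gene segments are cut and rejoined. RAG1 and RAG2 form the complex that makes the double-strand breaks, and the ends are then joined by the general repair machinery of non-homologous end joining. Dntt encodes terminal deoxynucleotidyl transferase, which adds nucleotides without a template at the junctions. In the thymus these genes are most active in immature thymocytes. CD4 and CD8 double positive thymocytes, which make up most of the organ, rearrange the T cell receptor alpha locus and are known for dying readily after irradiation.

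Rag1 and Rag2 lie side by side and are transcribed towards each other, and Dntt is on another chromosome. By RefSeq on GRCm38.p6 (mm10), Rag2 spans chromosome 2 from 101624712 to 101632528 on the plus strand. Rag1 spans 101638252 to 101649532 on the minus strand, 5.72 kb away. Dntt spans chromosome 19 from 41029275 to 41059525 on the plus strand. In GENCODE vM21 the whole coding sequence of Rag1 lies in 1 of its 2 exons and that of Rag2 in 1 of its 2 or 3 exons, whereas all 11 or 12 exons of Dntt hold coding sequence. GENCODE also places B230118H07Rik on the minus strand across both Rag genes. RefSeq, where this gene is named Iftap, ends it at 101629031, 9.2 kb from Rag1. Reads in the overlap cannot be told apart by strand, because the libraries were unstranded and Rag1 is itself on the minus strand. B230118H07Rik stood at only 2.99 to 7.99 FPKM in the 10 thymus libraries.

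The 250 bases before each annotated start are shown from RefSeq GRCm38.p6, 5′ to 3′ on the gene's own strand. They are given because of the timing of the falls in thymus. Against the single 0 h library, Dntt was called lower by 3 to 5 h, and Rag1 and Rag2 only by 6 to 8 h. The part of these sequences in that timing was not tested. Capitals mark motifs searched on both strands. The Runx motif, bound by a transcription factor family needed for T cell development, was read as TGTGGT. The Myb motif, for the thymocyte factor of that name, was TAACNG, and the GATA motif, for Gata3 and its relatives, was AGATAA. The general promoter element CCAAT was the fourth. The windows are chr2:101649533-101649782 on the minus strand for Rag1, chr2:101624462-101624711 on the plus strand for Rag2 and chr19:41029025-41029274 on the plus strand for Dntt.
Rag1: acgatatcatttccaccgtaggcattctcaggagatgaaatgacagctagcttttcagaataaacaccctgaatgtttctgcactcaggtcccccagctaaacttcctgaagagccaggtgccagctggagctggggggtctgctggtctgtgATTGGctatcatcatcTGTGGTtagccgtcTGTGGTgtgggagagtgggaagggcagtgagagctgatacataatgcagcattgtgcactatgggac
Rag2: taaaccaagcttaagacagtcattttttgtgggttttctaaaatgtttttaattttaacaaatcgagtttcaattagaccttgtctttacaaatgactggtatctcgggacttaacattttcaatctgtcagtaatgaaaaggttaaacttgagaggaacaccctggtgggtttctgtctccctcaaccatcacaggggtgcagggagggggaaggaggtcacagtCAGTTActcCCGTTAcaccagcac
Dntt: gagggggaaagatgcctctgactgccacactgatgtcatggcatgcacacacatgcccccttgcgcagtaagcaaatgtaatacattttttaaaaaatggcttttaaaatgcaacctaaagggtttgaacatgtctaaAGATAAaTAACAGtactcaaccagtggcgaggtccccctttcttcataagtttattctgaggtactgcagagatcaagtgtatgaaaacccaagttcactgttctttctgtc

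The Rag1 window held 2 Runx matches, beginning 81 and 67 bases before the start, and a CCAAT box beginning 97 bases before it. The Rag2 window held neither, and had 2 Myb matches, beginning 24 and 15 bases before the start. The Dntt window held 1 Myb match and 1 GATA match, beginning 105 and 112 bases before the start. E-boxes (CANNTG), left in lower case, occurred 3 times before Rag1, once before Rag2 and 3 times before Dntt, and the one 85 bases before Rag1 overlaps a Runx match. A p53 half-site, searched by name, matched once before Dntt, beginning 124 bases before the start, and not before Rag1 or Rag2. TATAAA was in none of the 3 windows. Of 32817 RefSeq promoter windows of the same length, 14.0% held the Runx motif, 33.8% CCAAT, 19.8% the Myb motif, 10.0% the GATA motif, 66.2% an E-box, 12.4% TATAAA and 7.1% the p53 half-site. These shares are high enough that a match describes the letters only.

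Levels are in FPKM, the fragments of a gene divided by its transcript length and the mapped fragments of the library, which can be compared between genes because they are per length. Tests were run with limma on log2(FPKM + 1) over the 12426 genes with a mean of at least 1 FPKM in thymus. A gene was called when its Benjamini-Hochberg adjusted p over all these genes was below 0.05. A change is the log2 fold change of FPKM + 1, given ± SE. Without fragment totals, which were not used here, no counting interval could be set. From the steps between low values, the deepest thymus library held roughly 3.25 times the fragments of the shallowest, and the 24 h library was the shallowest. That library also carried transcripts of another organ. The summed level of 12 small intestine genes, such as Fabp2 and Sis, was 13490 FPKM there, a median of 10.6% of the small intestine library of that hour, against sums of 21.0 to 60.2 FPKM in the other thymus libraries. The thymus label itself fitted its markers at 0 h, with Cd8a at 365 FPKM and Cd4 at 195 FPKM.

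Rag1 stayed high through 5 h and then dropped. Its level was 314 FPKM at 0 h, 307 at 1 h, 394 at 2 h, 407 at 3 h, 385 at 4 h and 422 at 5 h. It then stood at 247 FPKM at 6 h, 248 at 7 h, 176 at 8 h and 2.27 at 24 h. The 4 libraries from 2 to 5 h lay above the 0 h library, and the 3 libraries from 6 to 8 h lay below every earlier one.

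Rag2, the partner subunit, was lower throughout but had the same break. Its level was 51.4 FPKM at 0 h, 44.0 at 1 h, 55.0 at 2 h, 52.6 at 3 h, 43.5 at 4 h and 44.7 at 5 h. The later values were 31.7 FPKM at 6 h, 33.6 at 7 h, 26.9 at 8 h and 0.329 at 24 h. Only the 2 h and 3 h libraries exceeded 0 h, and again the 6 to 8 h libraries did not overlap the earlier ones. The same holds for Dntt and for other thymocyte genes such as Ccr9 and Cd8a, so the pattern is not particular to Rag1 and Rag2. The share of all genes with this pattern was not counted, so how common it is remains unknown. By the limma test described below, 13.5% of all genes fell from 1 to 5 h to 6 to 8 h.

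Dntt was below its 0 h level in every library from 2 h on. Its level was 527 FPKM at 0 h, 532 at 1 h, 437 at 2 h, 358 at 3 h, 268 at 4 h and 329 at 5 h. The later values were 177 FPKM at 6 h, 193 at 7 h, 136 at 8 h and 3.79 at 24 h. Dntt was the highest of the 3 genes at 0, 1 and 2 h, Rag1 was the highest from 3 to 8 h, and Dntt was again highest at 24 h.

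**Figure D1:**
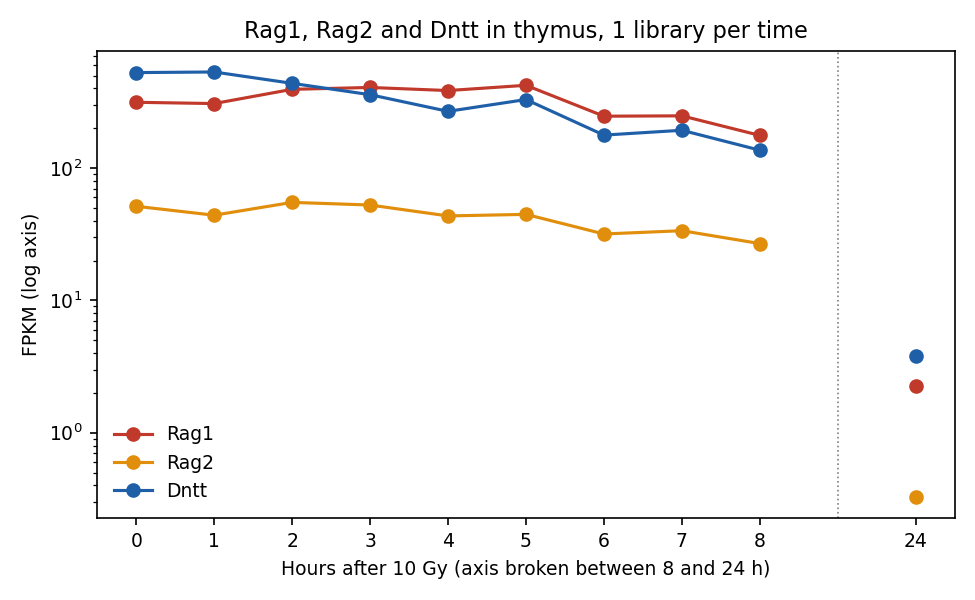
FPKM on a log axis against hours after 10 Gy for Rag1, Rag2 and Dntt in thymus, with 1 point per library and the axis broken between 8 and 24 h. Rag1 holds between 307 and 422 FPKM from 0 to 5 h and reaches 176 at 8 h, Dntt goes from 527 to 136 over 0 to 8 h, and all 3 points lie at or under 3.79 at 24 h.

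Averaged over the 8 irradiated libraries from 1 to 8 h, Dntt fell against 0 h and Rag1 and Rag2 did not pass the test. The change was -0.93 ± 0.17 for Dntt (limma adjusted p = 0.000715), -0.34 ± 0.13 for Rag2 (adjusted p = 0.0861) and -0.02 ± 0.16 for Rag1 (adjusted p = 0.968). Across all genes tested, 3.93% fell in this comparison, and 1 of the 3 genes was called. With a pseudocount of 0.1 the Dntt call was lost (-0.93, adjusted p = 0.0845). The 0 h side is a single library. Rag2 passed when the 1 h, 2 h or 3 h library was left out, with adjusted p = 0.0437, 0.0253 and 0.0359.

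The average hides different timing. In contrasts of shorter windows, chosen after the hourly values were seen, none of the 3 genes was called at 1 to 2 h, where 0.233% of genes fell. At 3 to 5 h Dntt had fallen by 0.73 on the log2 scale (SE 0.18, limma adjusted p = 0.0116), from 527 FPKM to 319 ± 46.0 (SD, n = 3), where 2.27% of genes fell. Rag1 at that time was 405 ± 18.5 FPKM (SD, n = 3), a log2 difference of 0.36 ± 0.17 from 0 h (adjusted p = 0.213), and Rag2 was 46.9 ± 4.93 FPKM (SD, n = 3). By 6 to 8 h all 3 had fallen below 0 h, where 11.4% of genes fell. The changes were -1.65 ± 0.18 for Dntt (adjusted p = 9.17e-07), -0.73 ± 0.14 for Rag2 (adjusted p = 0.000365) and -0.50 ± 0.17 for Rag1 (adjusted p = 0.0317).

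Within the irradiated libraries, which do not rest on the single 0 h library, the 3 genes fell from 1 to 5 h to 6 to 8 h. Dntt changed by -1.16 ± 0.11 (limma adjusted p = 1.99e-07), Rag1 by -0.78 ± 0.11 (adjusted p = 1.02e-05) and Rag2 by -0.62 ± 0.09 (adjusted p = 1.11e-05). Of all genes 13.5% fell here. By size of fall, 156 of the 12426 genes were lower than Dntt, 472 lower than Rag1 and 812 lower than Rag2. The fit pools the spread over 4 tissues, and these genes are near 0 in 3 of them, which makes the SE small. With the thymus libraries alone the 3 falls were also called, with adjusted p = 0.00219 for Dntt, 0.00502 for Rag1 and 0.00578 for Rag2. With a pseudocount of 0.1 in place of 1 the Rag1 call was lost (-0.78, adjusted p = 0.0626).

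Over 1 to 8 h the slope per hour was -0.27 ± 0.02 for Dntt (limma adjusted p = 4.75e-10), -0.13 ± 0.03 for Rag1 (adjusted p = 0.00115) and -0.12 ± 0.02 for Rag2 (adjusted p = 1.29e-05), where 16.3% of genes had a falling slope. Rag1 lay highest at 2 to 5 h, and its slope was the least secure. It missed the threshold with the thymus libraries alone (adjusted p = 0.0503) and without the 8 h library (-0.08, adjusted p = 0.0729). Exact permutation of the 8 hours within thymus, two-sided and unadjusted, gave p = 0.0543 for Rag1, 0.00853 for Rag2 and 0.000595 for Dntt, where 4.96e-05 is the smallest p it allows.

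At 24 h the 3 transcripts were nearly gone. Against its 0 h level, Rag1 stood at 0.724%, Rag2 at 0.639% and Dntt at 0.720%. The log2 changes were -6.59 ± 0.21 for Rag1, -5.30 ± 0.17 for Rag2 and -6.78 ± 0.22 for Dntt (limma adjusted p = 8.48e-17 for each), where 18.6% of genes fell and the median change of all genes was 0.15. The pseudocount of 1 shrinks the value for Rag2, whose 24 h level was under 1 FPKM. With 1 library at each time there is no replicate check, and the p assumes that single libraries vary like those within windows. The spread is pooled over 4 tissues, and these genes are near 0 in 3 of them, which makes the SE small. Ordered by log2 change, Dntt was the lowest of the 12426 genes, with 1 gene lower than Rag1 and 4 lower than Rag2. Among 6205 genes with at least 10 FPKM at 0 h, Rag2, Dntt and Rag1 held ranks 10, 11 and 12 from the lowest by percent of 0 h. Rank 9 was Dgkeos, a noncoding gene on the double positive thymocyte list.

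The fall at 24 h exceeded that of general T cell transcripts in the same library. The ratio of Rag1 to Cd3e, a chain of the T cell receptor complex, was 1.78 at 0 h, 2.67 at 5 h, 2.02 at 8 h and 0.101 at 24 h. The ratio of Rag2 to Cd3e was 0.292 at 0 h, 0.307 at 8 h and 0.0146 at 24 h. For Dntt to Cd3e it was 2.99 at 0 h, 1.56 at 8 h and 0.168 at 24 h. Against Cd8b1, a coreceptor chain of double positive and CD8 cells, Rag1 went from 0.574 at 0 h to 0.832 at 8 h and 0.127 at 24 h. Against Cd4, the other coreceptor, Rag1 was at 1.61 at 0 h, 1.39 at 8 h and 0.0647 at 24 h. At 24 h the ratios of Rag1 to all 3 T cell genes were far below their 0 h values, whereas at 8 h Rag1 was higher relative to Cd3e and Cd8b1 and lower relative to Cd4. In bulk tissue, fewer cells of a type and less RNA per cell cannot be told apart.

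Set beside the double positive and general T cell lists, Rag1 stood higher than most genes at 5 h and lower at 24 h. At 5 h Rag1 stood at 134% of its 0 h level, above 15 of 17 double positive thymocyte genes (median 89.6%) and above 14 of 14 general T cell genes (median 65.5%). At 8 h Rag1 stood at 56.2%, Rag2 at 52.2% and Dntt at 25.9%, against list medians of 38.4% and 43.9%. At 24 h the list medians were 7.64% (range 0.508 to 130%) and 16.3% (range 6.63 to 49.4%), and Dgkeos alone of these genes was lower than Rag1, Rag2 and Dntt. The lists for earlier and later thymocytes took another course. At 8 h the median was 152% for 12 double negative genes and 137% for 12 mature single positive genes, and at 24 h it was 88.7% and 73.5%. The median over genes with at least 10 FPKM at 0 h was 90.5% at 8 h and 89.3% at 24 h.

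**Figure D2:**
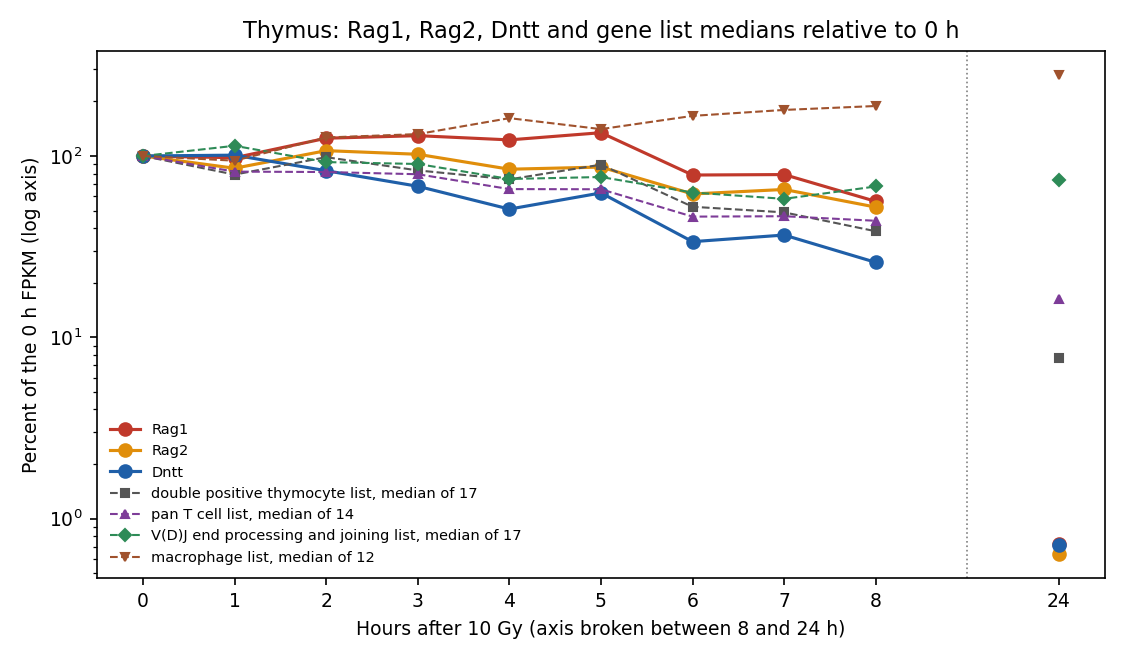
Percent of the 0 h FPKM on a log axis against hours after 10 Gy in thymus for Rag1, Rag2 and Dntt (solid lines) and for the medians of 4 gene lists (dashed lines), 1 library per time. Rag1 is at 134% at 5 h while Dntt is at 62.6%, and at 24 h the 3 genes lie at 0.639 to 0.724%, under the list medians of 7.64% and higher.

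From 1 to 5 h to 6 to 8 h, 12 of 17 double positive thymocyte genes fell and none rose (median -0.80, against -0.002 over all genes tested), where 13.5% of all genes fell. The largest falls were Dgkeos (-1.41), Trat1, a T cell receptor adaptor (-1.20), and Ccr9, a chemokine receptor of thymocytes (-1.02). The smallest changes were Cd4 (-0.40), Cd6 (-0.28) and Slamf1 (-0.25), none of them called. Without the 8 h thymus library 7 of the 17 fell. At 24 h, where 18.6% of all genes fell, 16 of 17 fell (median -3.49), the exception being Cd1d1, an antigen-presenting molecule (0.36, not called). Of the 14 general T cell genes, 7 fell at 6 to 8 h and 14 at 24 h. With the thymus libraries alone, 13 of these 14 fell at 6 to 8 h. The 12 macrophage markers went the other way, with 9 rising and none falling at 24 h (median 1.47), where 26.4% of all genes rose, and a summed level of 950 FPKM at 0 h, 2471 at 8 h and 2978 at 24 h. The 9 B cell markers in thymus summed to 82.6 FPKM at 0 h and 20.1 at 24 h, and the 12 thymic epithelial markers to 1774 and 2685 FPKM. Of these epithelial markers 5 rose and 2 fell at 24 h, in the library that carried intestinal transcripts. The part of those transcripts in the rises was not tested. Most of the increase in the epithelial sum was Ctsl, a lysosomal protease, at 344 FPKM at 0 h and 1214 at 24 h. Prss16, a serine protease of the cortical epithelium, went from 376 to 173 FPKM. The part of these cell types in the fall of the recombination genes was not tested.

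The 3 genes did not keep their proportions. The ratio of Rag1 to Rag2 was 6.11 at 0 h, 9.45 at 5 h, 6.57 at 8 h and 6.91 at 24 h. The ratio of Rag1 to Dntt was 0.596 at 0 h and 0.577 at 1 h, passed 1 at 3 h with 1.13, reached 1.44 at 4 h and was 1.29 at 8 h. The ratio of Rag2 to Dntt was 0.0977 at 0 h, 0.0827 at 1 h and 0.197 at 8 h. Within-library ratios do not depend on how libraries were scaled.

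Over 1 to 8 h, exact permutation tests of the 8 hours (two-sided, 3 pairs, Benjamini-Hochberg over the pairs) compared these courses. The log2 ratio of Rag2 to Dntt rose by 0.14 ± 0.03 per hour (exact p = 0.00228, adjusted p = 0.00685), and that of Rag1 to Dntt by 0.14 ± 0.05 per hour (exact p = 0.0149, adjusted p = 0.0224). For Rag1 to Rag2 the slope was -0.003 ± 0.029 per hour (exact p = 0.911), which does not show that their courses were equal. The Rag1 to Dntt difference missed the threshold without the 1 h, 2 h, 6 h or 7 h library (adjusted p = 0.172, 0.0688, 0.0682 and 0.0577), and its slope without the 1 h library was 0.07. The Rag2 to Dntt difference gave adjusted p = 0.0548 without the 1 h library. At 24 h the ratios were 0.599 for Rag1 to Dntt and 0.0868 for Rag2 to Dntt, next to the 0 h values, in 1 library with low levels of each gene.

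**Figure D3:**
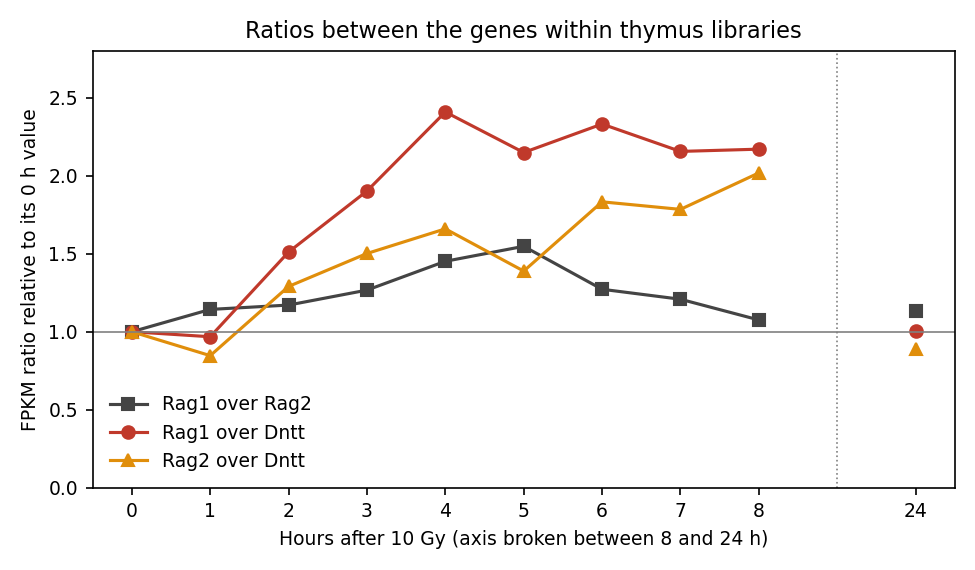
Ratios of FPKM between the genes within each thymus library, each divided by its own 0 h value, against hours after 10 Gy. Both ratios over Dntt dip at 1 h and then climb to 4 h, where Rag1 over Dntt peaks (from 0.596 at 0 h to 1.44 before scaling). Rag2 over Dntt is highest at 8 h. Both lie near 1 again at 24 h, while Rag1 over Rag2 peaks at 5 h.

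Outside thymus the genes were at or near 0. Spleen Dntt was the only sustained signal, at 1.24 FPKM at 0 h, 1.07 at 1 h, 0.884 at 2 h, 0.782 at 3 h, 0.520 at 4 h, 0.785 at 5 h, 0.338 at 6 h, 0.369 at 7 h and 0.0934 at 8 h, and it was listed at 0 at 24 h. All irradiated spleen libraries lay below 0 h, but the mean was under 1 FPKM, so no test was run. Spleen Rag1 was 0.154 FPKM at 0 h, 0.0565 at 1 h, 0.301 at 4 h and 0.0270 at 8 h, and was listed at 0 in the other 6 libraries. Spleen Rag2 was listed at 0.156 FPKM at 0 h and at 0 in the other 9 libraries.

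Small intestine showed Dntt at 0.139 FPKM at 0 h and otherwise 0 for the 3 genes, and large intestine was at 0 throughout. NIH3T3, which has no lymphocytes, was at 0 except for Rag1 at 0.0262 FPKM at 3 h. For each gene the order of the medians was therefore thymus first, with 311 FPKM for Rag1, 299 for Dntt and 43.7 for Rag2. Spleen came second for Dntt only, with a median of 0.651 FPKM, and the remaining systems, all with a median of 0, cannot be ordered. At 24 h the thymus levels of the 3 genes, though far below their start, were still above every library of the other systems.

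**Figure D4:**
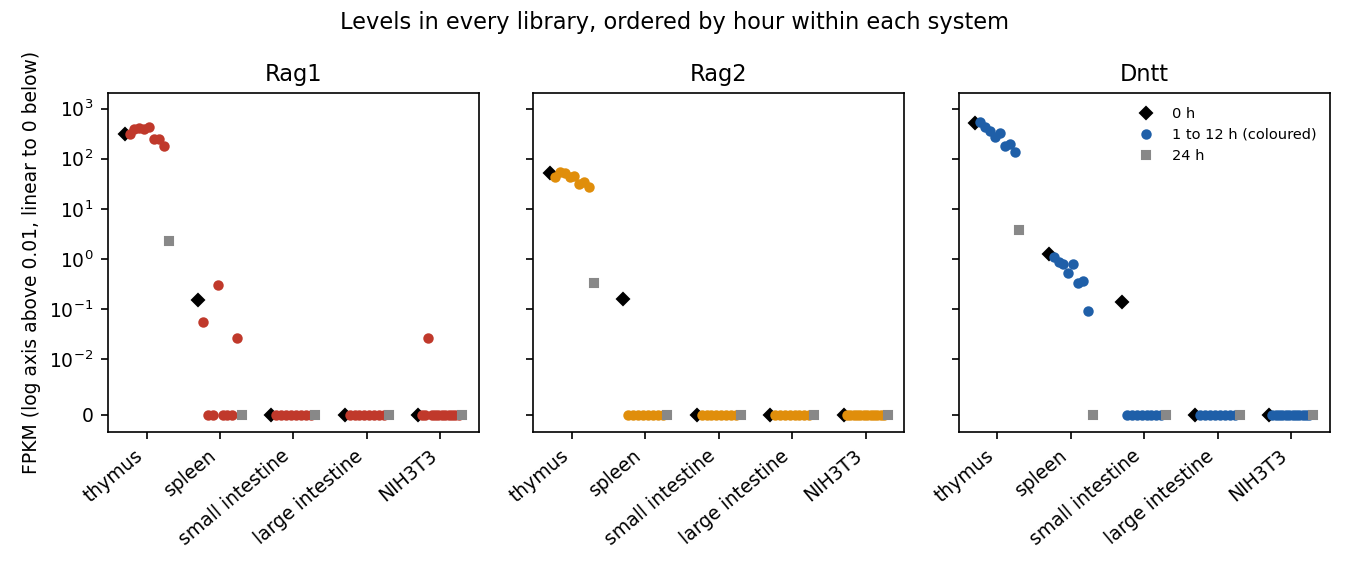
FPKM of Rag1, Rag2 and Dntt in every library of the 5 systems, ordered by hour within a system, on an axis that is logarithmic above 0.01 and linear to 0 below it. Thymus lies orders of magnitude above the rest, spleen Dntt runs from 1.24 at 0 h down to 0, and the intestines and NIH3T3 are at 0 but for single libraries at 0.139 and 0.0262.

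The thymus slope over 1 to 8 h minus the mean slope of the other 3 tissues was -0.23 ± 0.03 per hour for Dntt (limma adjusted p = 1.87e-07), -0.13 ± 0.03 for Rag1 (adjusted p = 0.00679) and -0.12 ± 0.02 for Rag2 (adjusted p = 0.000146), where 11.7% of genes were lower. Near 0 a gene can hardly fall on this scale, so for Rag1 and Rag2 the difference is almost the thymus slope itself. For Dntt the same limit holds in the intestines, and the pseudocount of 1 shrinks its fall in spleen. Spleen Dntt went from 1.07 FPKM at 1 h to 0.0934 at 8 h, and thymus Dntt from 532 to 136. The Dntt difference therefore does not show a steeper proportional loss in thymus. The change from 0 h to 1 to 8 h, taken the same way, was not called for any of the 3 genes, with -0.69 ± 0.19 for Dntt (adjusted p = 0.0620), where 0.370% of genes were lower.

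The machinery that joins RAG-made breaks is expressed in most cells, and many of its transcripts were lower at 6 to 8 h, as those of the 3 genes were. Of 17 tested genes for end processing and joining, 9 fell and none rose from 1 to 5 h to 6 to 8 h (median -0.51), where 13.5% of all genes fell and 18.7% rose. At 8 h the list median was 67.9% of the 0 h level, and 6 of the 17 were lower than Rag1 and 3 lower than Dntt on that scale. At 24 h 6 fell and 1 rose (median -0.37), where 18.6% of all genes fell and 26.4% rose. The list median was then 73.7% of the 0 h level, and no gene of the list was as low as Rag1, Rag2 or Dntt. The difference between the list and the 3 genes was not tested.

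Among the joining factors, Xrcc6, which encodes the Ku70 subunit that binds broken ends, lost the most at 6 to 8 h after Hmgb2. Xrcc6 was at 148 FPKM at 0 h, 155 at 1 h, 117 at 5 h, 63.9 at 6 h, 32.1 at 8 h and 13.2 at 24 h, a change of -1.37 ± 0.21 from 1 to 5 h to 6 to 8 h (limma adjusted p = 2.61e-05). Its break between 5 and 6 h falls at the same hour as that of Rag1. Xrcc5, for the partner subunit Ku80, was at 14.5 FPKM at 0 h, 5.97 at 8 h and 34.1 at 24 h, and rose at 24 h by 1.18 ± 0.42 (adjusted p = 0.0244) in the library that carried intestinal transcripts. Lig4, the ligase that seals the ends, fell from 20.9 FPKM at 0 h to 6.90 at 8 h and 3.79 at 24 h.

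Hmgb1 and Hmgb2, the DNA-bending proteins that assist RAG binding, changed by -1.06 ± 0.12 and -1.50 ± 0.19 at 6 to 8 h. H2afx, the histone variant phosphorylated beside breaks, changed by -0.61, Atm, the kinase that responds to breaks, by -0.56, Rad50 by -0.56, Mre11a by -0.46 and Prkdc, the DNA-dependent kinase, by -0.35. H2afx already stood at 29.3% of its 0 h level at 1 h, at 47.6% at 5 h and at 15.7% at 8 h. Xrcc5, Xrcc4, Nhej1, Dclre1c, Polm, Poll, Nbn and Trp53bp1 were not called. At 24 h H2afx (-3.80), Xrcc6 (-3.40), Hmgb2 (-3.26), Lig4 (-2.20), Hmgb1 (-1.53) and Mre11a (-1.10) fell.

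Dntt belongs to family X of DNA polymerases, and its relatives behaved otherwise. Polm and Poll, which fill gaps during end joining, and Polb, which works in base excision repair, were not called in any thymus comparison. Polm was at 6.82 FPKM at 0 h, 5.29 at 8 h and 6.94 at 24 h, Poll at 3.20, 2.41 and 4.92 and Polb at 19.7, 34.4 and 31.5. From 1 to 5 h to 6 to 8 h their changes were 0.01 ± 0.14, 0.01 ± 0.15 and -0.01 ± 0.17, beside -1.16 ± 0.11 for Dntt. The difference between Dntt and its relatives was not tested.

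**Figure D5:**
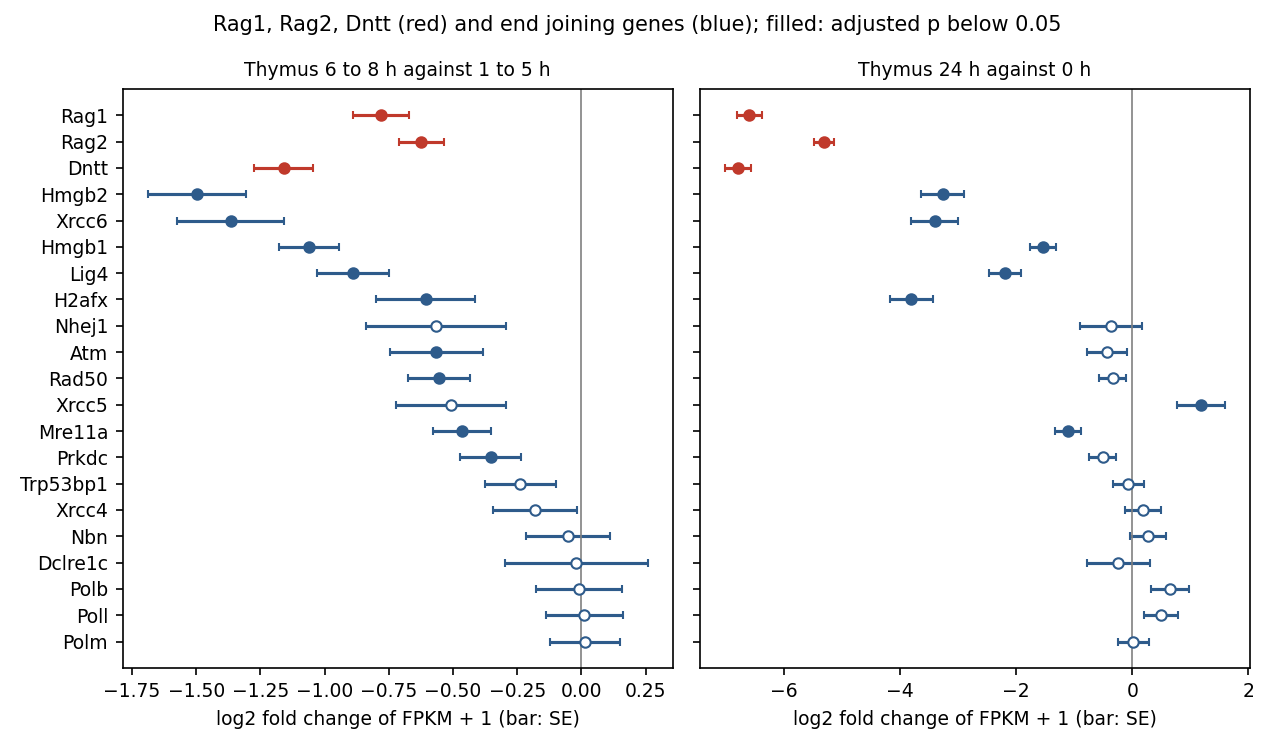
Log2 fold change of FPKM + 1 with its SE in thymus for Rag1, Rag2 and Dntt (red) and for the end joining genes and Polb (blue), for 6 to 8 h against 1 to 5 h (left) and 24 h against 0 h (right), where filled points have an adjusted p below 0.05. In the left panel Dntt (-1.16) lies among the end joining genes, with Hmgb2 at -1.50, and in the right panel Rag1, Rag2 and Dntt, at -5.30 and lower, lie below H2afx at -3.80.

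Among factors reported to bind or regulate the Rag locus in lymphocytes, more fell than rose. Of 27 tested, 10 fell and 2 rose from 1 to 5 h to 6 to 8 h (median -0.28). Of all genes 13.5% fell and 18.7% rose there. Without the 8 h thymus library 3 fell and 1 rose. The lowest were Lef1 (-0.97), Myb (-0.73) and Satb1 (-0.68), a chromatin organiser of thymocytes, and the highest were Spi1 (1.23), Id3 (0.47, not called) and Bach2 (0.46, not called). Spi1, which encodes the myeloid factor PU.1, stood at 11.2 FPKM at 0 h and 38.2 at 8 h, alongside the rise of the macrophage markers. At 24 h, where 18.6% of all genes fell and 26.4% rose, 16 fell and 1 rose (median -1.40). Satb1 (-4.51), Myb (-4.42) and Tcf7 (-4.09) were lowest. Lef1, which binds the T cell receptor alpha enhancer, stood at 74.5 FPKM at 0 h, 39.6 at 1 h and 30.8 at 5 h. It had fallen by 3 to 5 h (-1.01, limma adjusted p = 0.0156), when Rag1 was at its highest.

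Of the 5 measured neighbours of the Rag pair, Traf6, Prr5l, B230118H07Rik, Commd9 and Ldlrad3, none was called by limma from 1 to 5 h to 6 to 8 h, where 13.5% of all genes fell and 18.7% rose. None had an unadjusted p under 0.05. Over 1 to 8 h the slope of Commd9 fell (-0.09 per hour, limma adjusted p = 0.0288). Traf6, an immune signalling adaptor 28.9 kb from Rag1, was at 16.0 FPKM at 0 h, 12.9 at 8 h and 11.5 at 24 h. At 24 h Commd9 rose by 2.09 ± 0.34 (limma adjusted p = 2.94e-05), from 16.3 to 72.5 FPKM, again in the library with intestinal transcripts. Ldlrad3 was at a log2 difference of -1.41 ± 0.58 from 0 h, at 1.63 FPKM, and was not called (adjusted p = 0.0503), and with the thymus libraries alone 2 of the 5 neighbours fell at 24 h. The part of the intestinal transcripts in the 24 h rises of Commd9 and, above, of Xrcc5 was not tested.

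The genes whose levels followed the mean of Rag1, Rag2 and Dntt most closely were found by Pearson correlation of log2(FPKM + 1), as a description. Over the 9 thymus libraries from 0 to 8 h these were N4bp2 (0.993), Tex9 (0.991), Pip4k2a (0.983), Tia1 (0.983), Cd247 (0.982), Ccr9 (0.982), Tmem222 (0.980) and Ppp2r5a (0.978). Over all 54 libraries they were Arpp21 (0.998), Tdrd5 (0.992), BB031773 (0.992), Dgkeos (0.991), Spo11 (0.988), Nwd1 (0.983), Wdr78 (0.978) and Chrna9 (0.970), all of them high in thymus and low elsewhere. Values compared within a library share its organ and its hour of harvest. Over all 54 libraries the correlation also holds the difference of thymus from the other systems, where Rag1, Rag2 and Dntt were near 0. Arpp21, the closest over all libraries, was at 74.6 FPKM at 0 h, 80.0 at 5 h, 28.7 at 8 h and 1.15 at 24 h. It differed from Rag1 at other hours, with 62.6% of its 0 h level at 1 h and 76.8% at 4 h. Rag1 stood at 97.8% and 123% at those hours. Arpp21 was not among the closest genes over the thymus libraries from 0 to 8 h.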

How the data were processed

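Per the submitters' processing notes, the authors used TopHat2 2.1.0, Cufflinks 2.1.1 and the mouse build mm10. The deposited values are FPKM per gene and library, and the deposited table holds 13611 genes. The choice of these genes and any further scaling are not stated in the labels or headers. Per the labels' protocols, organs were kept in RNAlater and polyadenylated RNA went into unstranded TruSeq libraries.

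Tests used limma 3.58.1 in R 4.3.3 on log2(FPKM + 1) with a variance trend, two-sided. The 40 tissue libraries shared 1 fit with a mean per tissue and window (0, 1 to 2, 3 to 5, 6 to 8 and 24 h) and 20 residual degrees of freedom. Neighbouring hours served as replicates. Slopes were fitted over the 32 tissue libraries at 1 to 8 h with 24 residual degrees of freedom. Genes with a mean of at least 1 FPKM in thymus were tested. Ratios between genes were tested by exact permutation of the 8 hours, over 40320 orders. The script was tested on simulated data. Alternatives were a pseudocount of 0.1, no filter, other scalings, other windows, no trend, thymus alone and leaving out libraries.

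Rag1, Rag2, Dntt and the gene lists were chosen with earlier results of these data known. From a list, the 3 highest and 3 lowest changes were named, or any gene of the joining, family X and neighbour lists. Genes named for their course (Xrcc6, Lef1, Spi1, Ctsl, Prss16, Arpp21 and the marker examples) were chosen after their values were seen. Of the listed genes, 17 of 20 joining genes, 27 of 29 Rag locus factors and 5 of 7 neighbour symbols were tested. Depth is known only as rough ratios between libraries.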

Additional observations from a re-analysis of the deposited data

Results flagged for a closer look

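The hourly slope in thymus differed from the mean of spleen and both intestines for the 3 genes by a limma test of the difference. It was lower in thymus by a log2 difference of -0.227 per hour for Dntt, -0.127 for Rag1 and -0.124 for Rag2. Rag1 and Rag2 were listed at 0 in every intestine library and at or near 0 in spleen, where a gene can hardly fall. For Rag1 and Rag2 the difference is almost the thymus slope itself and shows no contrast with a tissue that expresses them. Spleen held low Dntt, which went from 1.07 FPKM at 1 h to 0.0934 at 8 h, while thymus Dntt went from 532 to 136. The Dntt difference thus does not show a steeper proportional loss in thymus. Rag1 lost the call of a lower slope without the 8 h thymus library (-0.08, limma adjusted p = 0.144). In the untested systems, Rag1 in the 4 h spleen library stood at 0.301 FPKM, above the 0.154 FPKM of the untreated spleen library. Rag1 in the 3 h NIH3T3 library stood at 0.0262 FPKM, where the untreated library was at 0. Both values are single libraries at levels too low for a test.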

How the results depend on the processing

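The tissues share their hours but the labels do not say that they share mice. With hour as a replicate block over the 4 tissues, added after seeing the data, the slopes minus the other tissues had limma adjusted p = 6.1e-07 for Dntt, 0.0081 for Rag1 and 0.000428 for Rag2, and 3629 genes were called in place of 3495. The change minus the other tissues was called for none of the 3 genes under this block, with adjusted p = 0.0531 for Dntt. Of the values under alternatives, 376 kept their direction and side of the threshold or moved little, 15 changed sign, 14 lost and 11 gained a call, and 13 counts moved by over 1.5 times. With a pseudocount of 0.1, Dntt at 1 to 8 h against 0 h was -0.93 (limma adjusted p = 0.0845), Rag1 at 6 to 8 h against 1 to 5 h -0.78 (0.0626), the Rag1 slope -0.13 (0.133), its difference from the other tissues -0.11 (0.295) and the Rag2 change minus the other tissues 0.10, with 141 genes called there in place of 238. With quantile normalization, Rag2 at 1 to 8 h was -0.49, and the changes minus the other tissues were -0.15 for Rag1 and -0.98 for Dntt. Genes called were then 2360 at 1 to 8 h, in place of 1518, and 611 for the difference. Median of ratios scaling gave -0.00352 for the Rag1 difference, and no variance trend gave -0.69 for Dntt (0.0475). Other window borders called 971, 2560 and 60 genes, in place of 1518, 3992 and 238. Without the 24 h thymus and 2 other libraries with foreign transcripts 400 genes were called for the difference. With thymus alone the Rag1 slope was -0.13 (0.0503), and by exact permutation p = 0.0543. From 0 h on, the Rag1 to Rag2 slope was 0.0198.

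Windows chosen after seeing the data gave Rag1 0.15 at 1 to 2 h, 0.36 at 3 to 5 h and -0.50 at 6 to 8 h against 0 h, Rag2 -0.73 at 6 to 8 h and Dntt -0.13 at 1 to 2 h. They called 92 genes at 1 to 2 h and 3557 at 6 to 8 h against 0 h, and 2104 at 6 to 8 h against 3 to 5 h. Leaving out 1 irradiated thymus library at a time gave the following ranges. At 1 to 8 h against 0 h Rag1 ranged from -0.0796 to 0.10 and Rag2 from -0.40 to -0.26. The changes minus the other tissues ranged from -0.0316 to 0.15 for Rag1 and from -0.83 to -0.55 for Dntt, with 92 to 553 genes called. The Rag1 slope ranged from -0.20 to -0.0790, and its difference from the other tissues from -0.19 to -0.0764. The slopes of the log2 ratios ranged from -0.0248 to 0.0274 for Rag1 to Rag2, from 0.0672 to 0.17 for Rag1 to Dntt and from 0.0920 to 0.15 for Rag2 to Dntt. The cause of these shifts was not tested. The falls of all 3 genes at 24 h and of Rag2 and Dntt at 6 to 8 h against 1 to 5 h were called under every alternative run that includes those libraries. Depth limits the spleen, intestine and NIH3T3 values and the 24 h Rag2 value.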
